A study of Rattus norvegicus with 12 samples.

Results

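The genes described here encode the nuclear subunits of the end of the mitochondrial respiratory chain: complex III, complex IV, the ATP synthase and the electron carrier cytochrome c. They were chosen by symbol and not by a threshold on their response, though earlier results of these data were known. A row of the deposited expression table was a member if its symbol began with Uqcr, with Atp5 or with Cox followed by a digit from 4 to 8, or was Cyc1 or Cycs. It also had to hold a number in each of the 12 samples and a mean of at least 1 TPM (a length-corrected share of all transcripts in a sample). Of 45 matching rows, 43 met this rule, out of 17104 genes with a number in every sample. Complex III had 10 members, complex IV 16, the ATP synthase 16 and cytochrome c 1. The lowest member by mean was Cox4i2, at 3.71 TPM, and the rows left out were Cox6b2 at 0.406 TPM and Cox8c at 0.0548 TPM. The 43 rows carry 41 symbols, since Uqcrb and Cox6b1 each stand for 2 gene identifiers.

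The samples were bulk RNA libraries of cardiac muscle from ZSF1 rats, a strain whose obese animals are used as a model of heart failure with preserved ejection fraction. There were 4 lean, 4 obese and 4 obese samples treated with NAM (nicotinamide, a precursor of NAD+), which was given at 24 mM in drinking water between 8 and 20 weeks of age. The age of the lean and untreated obese animals is not stated in the labels, which call the obese animals diet-induced obese. As background, obesity in this strain comes from defective leptin receptor alleles on a hypertensive line, so lean and obese animals differ by genotype. Whether every sample came from a different animal is not stated, and p-values here measure only the spread between these samples.

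Complex III (ubiquinol-cytochrome c reductase) passes electrons from ubiquinol to cytochrome c, and complex IV (cytochrome c oxidase) passes them on to oxygen. Both pump protons, and the ATP synthase uses the returning flow to make ATP. A few core subunits of each complex are made inside the mitochondrion from its own genome, while the rest are nuclear-encoded and imported. Heart muscle is rich in these complexes, and for some complex IV subunits it uses isoforms of its own, such as Cox6a2, Cox7a1 and Cox8b, in place of the isoforms found in most other tissues.

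Regulatory sequence is shown for the 3 genes of the c ring of the ATP synthase, for the heart and the general isoform of complex IV subunit 8, and for cytochrome c, because the results set the members of the first 2 sets side by side and Cycs is the single gene of its carrier. Each sequence is the 250 bases before the annotated start in RefSeq on build GRCr8, read 5′ to 3′ on the gene's strand. Capitals mark matches to 6 searched motifs on either strand, written in their reverse complement where the match is on the opposite strand.
Atp5mc1, chr10:81523346-81523595, minus strand: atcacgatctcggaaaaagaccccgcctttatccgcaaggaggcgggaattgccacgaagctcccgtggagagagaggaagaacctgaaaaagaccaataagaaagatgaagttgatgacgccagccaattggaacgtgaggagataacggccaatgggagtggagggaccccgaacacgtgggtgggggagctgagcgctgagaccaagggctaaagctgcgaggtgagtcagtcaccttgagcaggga
Atp5mc2, chr7:135678219-135678468, minus strand: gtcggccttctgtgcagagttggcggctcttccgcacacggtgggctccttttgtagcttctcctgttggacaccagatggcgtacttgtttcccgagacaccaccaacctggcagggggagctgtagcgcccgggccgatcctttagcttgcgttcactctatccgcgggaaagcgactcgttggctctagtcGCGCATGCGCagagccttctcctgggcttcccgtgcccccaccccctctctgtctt
Atp5mc3, chr3:79220665-79220914, minus strand: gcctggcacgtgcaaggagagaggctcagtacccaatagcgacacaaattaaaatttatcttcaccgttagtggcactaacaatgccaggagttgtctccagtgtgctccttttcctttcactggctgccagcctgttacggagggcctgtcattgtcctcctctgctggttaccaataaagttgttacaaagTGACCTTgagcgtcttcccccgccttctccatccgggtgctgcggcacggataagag
Cox8b, chr1:205408274-205408523, minus strand: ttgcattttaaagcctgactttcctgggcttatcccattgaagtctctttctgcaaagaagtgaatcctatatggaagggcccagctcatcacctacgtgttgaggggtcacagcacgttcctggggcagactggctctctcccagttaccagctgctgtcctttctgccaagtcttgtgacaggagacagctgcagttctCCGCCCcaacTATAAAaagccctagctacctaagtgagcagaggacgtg
Cox8a, chr1:213833624-213833873, minus strand: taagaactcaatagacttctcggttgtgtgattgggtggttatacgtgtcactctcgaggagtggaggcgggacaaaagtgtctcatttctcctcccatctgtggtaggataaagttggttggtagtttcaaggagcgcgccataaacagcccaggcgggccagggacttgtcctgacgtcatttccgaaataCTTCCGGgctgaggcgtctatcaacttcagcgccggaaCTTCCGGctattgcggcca
Cycs, chr4:80984768-80985017, minus strand: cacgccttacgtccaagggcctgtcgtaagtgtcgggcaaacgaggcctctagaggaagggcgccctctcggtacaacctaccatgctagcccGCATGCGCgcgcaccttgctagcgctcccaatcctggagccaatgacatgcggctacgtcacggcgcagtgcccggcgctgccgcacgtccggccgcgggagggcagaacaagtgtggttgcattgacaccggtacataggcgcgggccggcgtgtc
The motifs were GCGCATGC (the core of the site of nuclear respiratory factor 1, NRF1), AAGGTCA (estrogen-related receptors), CCGGAAG (ETS factors, among them the nuclear respiratory factor 2 complex), AAGATGGC (YY1), GGGCGG (Sp1) and TATAAA (the TATA box). Of the shown windows, Atp5mc2 held overlapping NRF1 cores at bases -56 and -54 from the start and Cycs held 1 at -157. Atp5mc3 held an estrogen-related receptor motif at -57, and Cox8a held ETS motifs at -57 and -19. Cox8b held a TATA box at -39 and an Sp1 motif at -49, and the Atp5mc1 window held no match. All 41 symbols matched a RefSeq gene and 34 had a window of 300 bases, which adds 50 bases after the start. The NRF1 core was in 6 of these 34 windows (17.6%) and in 2.47% of all 33469 windows. The estrogen-related receptor motif was in 6 (17.6%, against 4.61%), the ETS motif in 11 (32.4%, against 8.75%) and the YY1 motif in 6 (17.6%, against 3.17%). The Sp1 motif, in 11 windows, and the TATA box, in 5, had shares of 32.4% and 14.7%, next to 33.1% and 14.2% of all windows. The windows of the background were not filtered by gene type or expression. Their median GC content was 51.7%, next to 55.7% for the members. Whether other expressed protein-coding genes have similar shares was not tested. A match is only a run of letters, and binding was not measured.

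By level, Cox8b was the highest member, with a mean of 3567 TPM over the 12 samples, followed by the larger Cox6b1 row at 2219 TPM and Atp5me at 2189 TPM. The median member of complex III stood at 315 TPM, that of complex IV at 557 TPM and that of the ATP synthase at 572 TPM. Together the members made up 10.4 ± 0.156% of the TPM of nuclear genes in the lean group, 9.45 ± 0.519% in the obese group and 9.84 ± 0.246% in the NAM-treated group (mean ± SD, n = 4). All 43 passed the filter for testing, at least 1 TPM in at least 4 samples, which left 10526 genes.

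Summed over its 16 members, complex IV stood at 16442, 14558, 14066 and 14345 TPM in the lean samples, 11255, 10544, 10303 and 10535 in the obese samples and 12558, 11573, 12115 and 12317 in the NAM-treated samples. The obese samples lay below all others and the NAM-treated samples lay between the obese and the lean samples without overlap. The complex III sum was 3604, 3199, 3095 and 3234 TPM in the lean samples, 2506, 2519, 2258 and 2539 in the obese samples and 3102, 2852, 2999.9 and 3090.0 in the NAM-treated samples. The obese samples again lay below all others, and NAM-treated replicate 1 lay above the lowest lean sample. The ATP synthase sum was 15236, 12929, 12647 and 13096 TPM in the lean samples, 10275, 10124, 9237 and 10382 in the obese samples and 13555, 11680.4, 12149 and 12508 in the NAM-treated samples. Here the NAM-treated samples lay above all obese samples and overlapped the lean ones. These positions hold for the deposited scale. After the rescaling described below, the NAM-treated mean was the lowest in each complex, and obese and NAM-treated samples overlapped. Rescaled means in lean, obese and NAM-treated samples were 14096, 12138 and 11028 for complex IV. They were 3116, 2794 and 2735 for complex III and 12786, 11385 and 11318 for the ATP synthase.

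**Figure D1:**
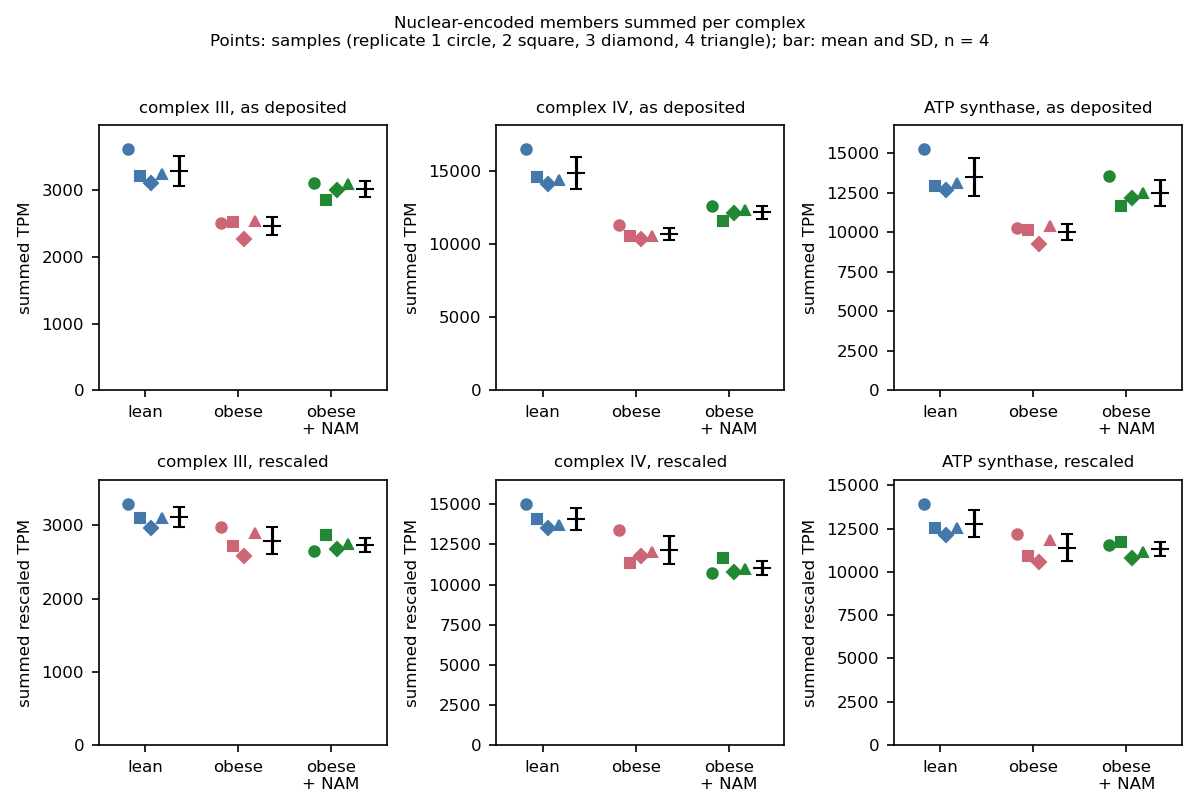
Summed TPM of the nuclear-encoded members of each complex (y axis, TPM, from 0) by group, as deposited (top) and after median-of-ratios rescaling (bottom), with 1 point per sample and bars for mean and SD (n = 4). On the deposited scale the obese samples lie lowest in each complex, and lean replicate 1 is the highest sample. After rescaling the groups of the ATP synthase and of complex III come closer together, and the NAM-treated mean is the lowest in each complex.

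TPM are shares, so a change in a few very abundant transcripts moves all others. The 13 mitochondrially encoded genes took 66.2% to 70.4% of TPM in lean samples, 74.6% to 75.5% in obese samples and 69.9% to 73.8% with NAM. Each comparison was therefore made on the deposited scale and after a median-of-ratios rescaling, in which the ratios of a sample's genes to their geometric mean over samples gave, by their median, the divisor of that sample (rescaled). The median change of all 10526 tested genes between obese and lean was -0.20 on the log2 scale as deposited and 0.00 after rescaling. For NAM-treated against obese it was 0.25 and -0.01, and for NAM-treated against lean 0.05 and 0.00. Values in TPM per sample below, and whether groups overlap, are on the deposited scale unless stated. Changes below are differences of log2(TPM + 1) ± SE from limma, with p adjusted by Benjamini-Hochberg over all tested genes and a threshold of 0.05.

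On the deposited scale 39 of the 43 members (90.7%) fell in obese against lean hearts, and none rose, where 16.5% of all tested genes were called lower. All 10 members of complex III, 13 of 16 of complex IV, 15 of 16 of the ATP synthase and Cycs were among them. The members not called were Cox4i2, Cox7a2l, Cox8a and the ATP synthase inhibitor Atp5if1. The median member change was -0.42, which is -0.22 relative to the median of all tested genes. Lean and obese samples did not overlap for 39 members (90.7%) as deposited, beside 23.8% of all tested genes. Rescaled, this held for 10 members (23.3%), beside 9.57% of all tested genes. After rescaling, 1 member was called lower, Atp5mc1, where 0.751% of tested genes were, and the median member change was -0.16. The change was below 0 for 40 of 43 members after rescaling, and the median stayed below 0 under quantile normalization (-0.14), without mitochondrially encoded genes (-0.11) and after upper-quartile rescaling (-0.16).

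In NAM-treated against obese hearts 24 members (55.8%) rose on the deposited scale and none fell, where 28.8% of tested genes were called higher. They were 6 of complex III, 6 of complex IV, 11 of the ATP synthase and Cycs. The median member change of 0.27 was 0.02 above the median of all tested genes. After rescaling the split turned: 1 member, Atp5mc2, fell, none rose, the background of genes called lower was 0.513%, and the median was -0.05. The sign of that median depends on the scaling, since it was 0.08 under quantile normalization and 0.07 without mitochondrially encoded genes, with 1 and 4 members called higher. Relative to all tested genes the median of complex IV was -0.14 as deposited and -0.17 rescaled, that of complex III 0.03 and -0.04, and that of the ATP synthase 0.06 and -0.01. NAM-treated and obese samples did not overlap for 23 members (53.5%) as deposited, beside 28.4% of all tested genes. Rescaled, this held for 9 members (20.9%), beside 9.18% of all tested genes. The comparison shares its obese samples with that of obese against lean.

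Against lean hearts, members of all 3 complexes were called lower with NAM on at least 1 scale. As deposited 7 members fell in NAM-treated against lean hearts (16.3%, background 0.969%), 3 of complex III and 4 of complex IV. They were Uqcr10, Uqcr11, Uqcrq, Cox5b, Cox6a2, Cox8b and the larger Cox6b1 row. After rescaling 15 fell (34.9%, background 1.59%), 4 of complex III, 7 of complex IV and 4 of the ATP synthase, and none rose on either scale. The median member change was -0.12 as deposited, -0.19 rescaled, -0.05 under quantile normalization and -0.02 without mitochondrially encoded genes. Under each of the last 2 settings 25 members were below 0 and 18 above, with 5 and 10 called lower and 1 called higher (Atp5f1b and Uqcrc2). The rescaled count was 6 without lean replicate 2, NAM-treated replicate 1 or NAM-treated replicate 4 and 7 without lean replicate 1 or NAM-treated replicate 3. Atp5mc2, Uqcrq, Uqcr10, Cox6a2, Cox8b and the larger Cox6b1 row were called in each of the 12 fits that left out 1 sample. The other 9 were lost in 4 (Atp5mc1 and Cox5b) to 10 (Cox6a1 and Cox7a1) of these fits. The deposited count of 7 was 2 without NAM-treated replicate 4. NAM-treated and lean samples did not overlap for 18 members (41.9%) as deposited, beside 10.7% of all tested genes. Rescaled, this held for 26 members (60.5%), beside 12.2% of all tested genes.

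**Figure D2:**
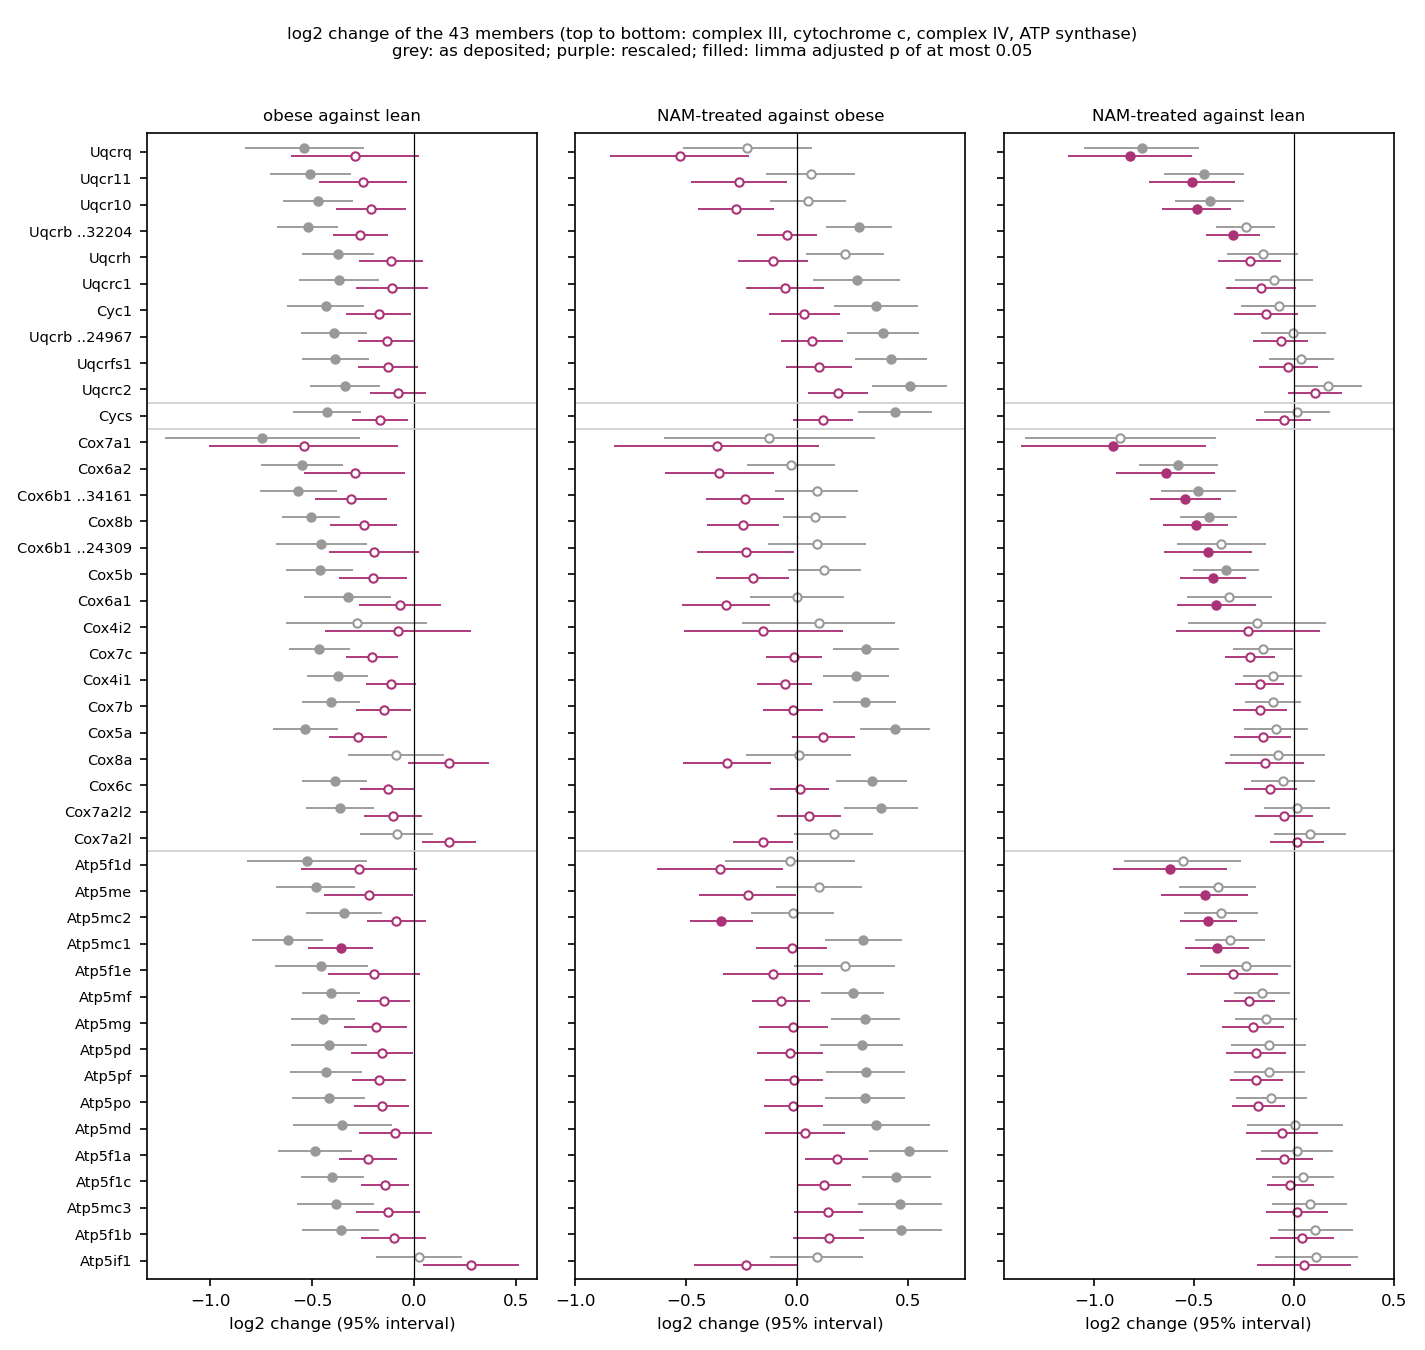
Log2 change of each of the 43 members with its 95% interval (x axis) in the 3 comparisons, as deposited (grey) and rescaled (purple), with filled points for an adjusted p of at most 0.05. As deposited 39 members are called in the left panel and 24 in the middle, after rescaling 1 in each, and the signs of the middle panel mostly turn with the scale (38 above 0 as deposited, 13 rescaled); 15 rescaled members are called in the right panel.

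As deposited, all 10 members of complex III fell in obese hearts. With NAM both core proteins and both redox subunits rose, and 2 of the 6 rows of small subunits did, both named Uqcrb. Of all tested genes 16.5% were called lower in the first comparison and 28.8% higher in the second. After rescaling no member of complex III was called in either. Uqcrc1 and Uqcrc2 are the core proteins on the matrix side. Uqcrc1 stood at 255, 217, 208 and 216 TPM in the lean samples, 189, 187, 154 and 163 in the obese samples and 225, 200.2, 197 and 211 in the NAM-treated samples. Its obese samples lay below all lean and NAM-treated samples, and it changed by -0.37 ± 0.09 in obese against lean (adjusted p = 0.0165) and by 0.27 ± 0.09 in NAM-treated against obese (adjusted p = 0.0406) as deposited. Rescaled, these changes were -0.11 ± 0.08 (adjusted p = 0.544) and -0.05 ± 0.08 (adjusted p = 0.796), so the sign of the second turned. The deposited call with NAM was lost in 7 of the 12 fits that left out 1 sample, among them those without obese replicate 3 or NAM-treated replicate 1. Uqcrc2 stood at 489.8, 462, 451 and 476 TPM in the lean samples, 367, 419, 326 and 379 in the obese samples and 557, 496, 514 and 551 in the NAM-treated samples. All its obese samples lay below all others. It had the highest rescaled change of complex III with NAM, 0.19 ± 0.06, which did not pass the test (adjusted p = 0.18), next to 0.51 ± 0.08 as deposited (adjusted p = 0.00292).

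The redox subunits are cytochrome c1 (Cyc1), which hands electrons to cytochrome c, and the Rieske iron-sulfur protein (Uqcrfs1), which takes them from ubiquinol. Cyc1 stood at 338, 297, 293 and 293 TPM in the lean samples, 239.9, 244, 192 and 228 in the obese samples and 296, 263, 297 and 300.2 in the NAM-treated samples. Uqcrfs1 stood at 524, 469.9, 478 and 483 TPM in the lean samples, 391, 399.7, 326 and 381 in the obese samples and 529, 484, 486 and 506 in the NAM-treated samples. For both, every obese sample lay below every lean and every NAM-treated sample as deposited. After rescaling the obese samples of both overlapped the lean and the NAM-treated ones. Uqcrfs1 fell by 0.39 ± 0.08 in obese hearts (adjusted p = 0.00591) and rose by 0.42 ± 0.08 with NAM (adjusted p = 0.00379) as deposited, and neither change passed after rescaling (adjusted p = 0.384 and 0.519). Cyc1 changed by -0.43 ± 0.09 and 0.36 ± 0.09 as deposited (adjusted p = 0.00698 and 0.0113), and by -0.18 and 0.03 rescaled (adjusted p = 0.255 and 0.864).

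Small subunits of complex III surround the core and help to build it. Uqcr10 stood at 544, 456, 470.1 and 481 TPM in the lean samples, 378, 327, 324 and 376 in the obese samples and 362, 340.1, 380.1 and 370.3 in the NAM-treated samples. Obese and NAM-treated samples overlapped and both lay below the lean samples. In NAM-treated against lean hearts Uqcr10 fell by 0.42 ± 0.08 as deposited (adjusted p = 0.0198) and by 0.49 ± 0.08 rescaled (adjusted p = 0.00771). Uqcrq, which binds ubiquinone near cytochrome b, was low at 32.7, 27.1, 20.7 and 22.96 TPM in the lean samples, 18.3, 15.8, 19.5 and 15.6 in the obese samples and 13.1, 15.9, 16.3 and 13.5 in the NAM-treated samples. All lean samples lay above all others, and obese and NAM-treated samples overlapped. It had the lowest rescaled change of the complex in all 3 comparisons: -0.29 ± 0.14 in obese against lean, -0.53 ± 0.14 in NAM-treated against obese and -0.82 ± 0.14 in NAM-treated against lean, of which the last passed (adjusted p = 0.336, 0.114 and 0.0121). Uqcr11 was listed at 245, 199, 189 and 187 TPM in the lean samples, 158, 130.0, 142 and 143 in the obese samples and 155, 152, 146 and 142 in the NAM-treated samples. Its NAM-treated samples all lay below the lean ones, with a rescaled change of -0.51 ± 0.10 (adjusted p = 0.0198). The larger Uqcrb row (ENSRNOG00000032204) was listed at 462, 402, 397 and 427 TPM in the lean samples, 282, 308, 275 and 308 in the obese samples and 361, 354, 353 and 356 in the NAM-treated samples. Its groups did not overlap, with obese lowest and lean highest, and its rescaled change in NAM-treated against lean was -0.31 ± 0.06 (adjusted p = 0.0268). The smaller Uqcrb row (ENSRNOG00000024967) had a rescaled change of -0.07 ± 0.06 there (adjusted p = 0.655). RefSeq lists pseudogenes named after Uqcrb, Uqcr10 and Cox6b1, and reads of near-identical copies may have been split between rows. Uqcrh, the hinge protein at the cytochrome c site, fell in obese hearts as deposited (-0.37 ± 0.08, adjusted p = 0.0103) and did not pass the test with NAM (0.22 ± 0.08, adjusted p = 0.0619).

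Cytochrome c carries electrons from complex III to complex IV in the space between the mitochondrial membranes, and Cycs is its somatic gene. Cycs stood at 589, 519, 524 and 569 TPM in the lean samples, 371, 425, 390.1 and 452 in the obese samples and 566, 524, 546 and 587 in the NAM-treated samples. All obese samples lay below all others, and lean and NAM-treated samples overlapped. It fell by 0.43 ± 0.08 in obese hearts (adjusted p = 0.00434) and rose by 0.44 ± 0.08 with NAM (adjusted p = 0.00359) as deposited. Rescaled, the changes kept their signs at -0.17 ± 0.06 and 0.12 ± 0.06 but did not pass (adjusted p = 0.2 and 0.388).

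In complex IV the heart isoforms Cox6a2, Cox7a1 and Cox8b fell in obese hearts as deposited, and none of these calls held after rescaling. None of the heart isoforms was called higher with NAM. As deposited, 28.8% of all tested genes were called higher with NAM. The lack of a call was not particular to the heart isoforms, since 10 of the 16 complex IV members were not called there. Among these were the general isoforms Cox6a1 and Cox8a, which changed by 0.002 to 0.007 as deposited and by -0.32 to -0.31 rescaled. Cox8b, the heart and muscle form of subunit 8, stood at 4833, 4293, 4070.5 and 4308 TPM in the lean samples, 3348, 3018, 2929.9 and 3005 in the obese samples and 3233, 3218, 3126 and 3423 in the NAM-treated samples. Every lean sample lay above every obese and NAM-treated sample. Cox8b fell by 0.51 ± 0.07 in obese against lean hearts as deposited (adjusted p = 0.00112) and changed by -0.25 ± 0.07 rescaled (adjusted p = 0.123). With NAM it changed by 0.08 ± 0.07 against obese as deposited (adjusted p = 0.372) and was lower than in lean hearts on both scales (-0.43 ± 0.07, adjusted p = 0.00746; rescaled -0.49 ± 0.07, adjusted p = 0.006). Under quantile normalization the sign turned for Cox8b, to 0.08 in obese against lean and 0.05 in NAM-treated against lean. The general isoform Cox8a stood at 101, 87.2, 85.5 and 98.4 TPM in the lean samples, 98.7, 91.1, 76.00 and 84.6 in the obese samples and 101, 74.3, 84.02 and 93.7 in the NAM-treated samples. Its groups overlapped on this scale, and no comparison passed the test on either scale (adjusted p from 0.129 to 0.966).

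Cox6a2, the heart and muscle form of subunit 6A, stood at 832, 686, 669 and 666 TPM in the lean samples, 525, 441, 489.7 and 485 in the obese samples and 465, 545, 437 and 462 in the NAM-treated samples. The lean samples lay above all others, and the obese and NAM-treated ranges overlapped. Cox6a2 fell by 0.55 ± 0.09 in obese against lean hearts as deposited (adjusted p = 0.00357), while its rescaled change there, -0.29, was not called. In NAM-treated against lean hearts it fell by 0.58 ± 0.09 as deposited (adjusted p = 0.00863) and 0.64 ± 0.11 rescaled (adjusted p = 0.0128). The general form Cox6a1 stood at 109, 102, 90.4 and 95.1 TPM in the lean samples, 77.2, 70.6, 89.00 and 78.7 in the obese samples and 75.7, 68.8, 87.4 and 84.4 in the NAM-treated samples. All obese and NAM-treated samples lay below all lean ones. Cox6a1 changed by -0.33 ± 0.10 in obese against lean as deposited (adjusted p = 0.0386) and by -0.39 ± 0.09 in NAM-treated against lean rescaled (adjusted p = 0.048). These calls were lost in 6 and 10 of the 12 fits that left out 1 sample, without lean replicate 1 among them. Rescaled, the change of Cox6a1 in obese against lean was only -0.07. As deposited, that in NAM-treated against lean was -0.32, and neither of these was called.

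The balance of heart to general isoform was tested within samples, where the scale cancels. The ratio of Cox8b to Cox8a was 47.8, 49.3, 47.6 and 43.8 in the lean samples, 33.9, 33.1, 38.6 and 35.5 in the obese samples and 32.01, 43.3, 37.2 and 36.5 in the NAM-treated samples. The lean ratios lay above all obese and all NAM-treated ratios. The mean log2 ratio differed by -0.42 in obese against lean and by -0.35 in NAM-treated against lean, each with the smallest p that the exact 2-sided permutation test of 4 against 4 can give, 0.0286, and 0.0857 after adjustment over 6 tests. Between NAM-treated and obese samples it differed by 0.07 (exact permutation p = 0.543, adjusted 0.651). The ratio of Cox6a2 to Cox6a1 was 7.62, 6.76, 7.41 and 7.003 in the lean samples, 6.801, 6.25, 5.502 and 6.16 in the obese samples and 6.14, 7.92, 5.005 and 5.48 in the NAM-treated samples. Its mean log2 difference was -0.22 in obese against lean (exact permutation p = 0.0571, adjusted 0.114), -0.25 in NAM-treated against lean (0.171, adjusted 0.257) and -0.03 in NAM-treated against obese (0.857, adjusted 0.857). None of the 6 tests passed 0.05 after adjustment.

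**Figure D3:**
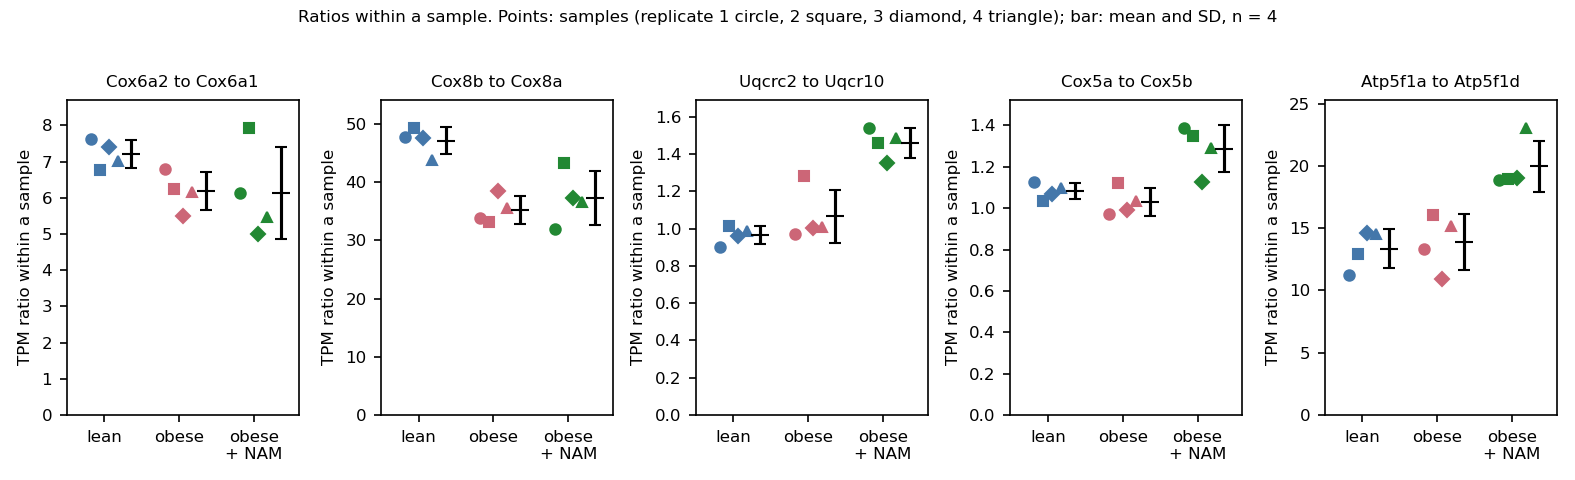
TPM ratio of 2 genes within a sample (y axis, from 0) by group, with 1 point per sample and bars for mean and SD (n = 4), for 2 isoform pairs and for 3 pairs of subunits of one complex. Cox8b to Cox8a is highest in the 4 lean samples (43.8 to 49.3), and Uqcrc2 to Uqcr10 and Atp5f1a to Atp5f1d are highest in the 4 NAM-treated samples.

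Cox7a1, the heart and muscle form of subunit 7A, was listed at only 6.47, 5.09, 5.702 and 6.53 TPM in the lean samples, 2.71, 4.53, 2.65 and 2.88 in the obese samples and 4.07, 3.44, 1.26 and 3.06 in the NAM-treated samples. All lean samples lay above all others. It fell by 0.75 ± 0.22 in obese hearts as deposited (adjusted p = 0.0363), a call that was lost without lean replicate 1, 3 or 4 or obese replicate 1, 3 or 4. Its rescaled change in NAM-treated against lean was -0.90 ± 0.21 (adjusted p = 0.0483). That call was lost in 10 of the 12 fits that left out 1 sample, among them each of those without a lean sample. Its change was -0.54 in obese against lean rescaled and -0.87 in NAM-treated against lean as deposited, and neither was called. Cox7a2l, an assembly factor that joins complex III and complex IV into supercomplexes, stood at 63.9, 57.5, 56.8 and 60.1 TPM in the lean samples, 50.9, 54.9, 59.3 and 59.3 in the obese samples and 67.04, 55.95, 62.5 and 66.9 in the NAM-treated samples. Its lean and obese samples overlapped as deposited, while after rescaling all obese samples lay above all lean ones. Its change there, -0.09 ± 0.08 as deposited and 0.17 ± 0.06 rescaled, passed on neither scale (adjusted p = 0.495 and 0.19). The row named Cox7a2l2 was higher, with a mean of 549 TPM over the 12 samples. As deposited it fell in obese against lean (-0.36 ± 0.08, adjusted p = 0.00876) and rose in NAM-treated against obese (0.38 ± 0.08, adjusted p = 0.00549). Rescaled, these changes were -0.10 and 0.06, and neither was called. Its gene span in RefSeq is only 459 bases, and no row is named Cox7a2. Whether it holds reads of Cox7a2 was not tested.

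Cox4i1, the common form of the first nuclear subunit to join the mitochondrially made core, stood at 1003, 892, 885 and 902 TPM in the lean samples, 743, 724, 657 and 713 in the obese samples and 915, 793, 861 and 850.1 in the NAM-treated samples. All obese samples lay below all lean and NAM-treated samples. It fell by 0.37 ± 0.07 in obese hearts (adjusted p = 0.00456) and rose by 0.27 ± 0.07 with NAM (adjusted p = 0.0137) as deposited, and rescaled it changed by -0.12 and -0.06 (adjusted p = 0.333 and 0.678). Its hypoxia-responsive paralogue Cox4i2 was listed at 4.16, 4.98, 4.91 and 2.93 TPM in the lean samples, 2.55, 2.81, 4.34 and 3.54 in the obese samples and 3.14, 3.52, 4.32 and 3.33 in the NAM-treated samples. The groups of Cox4i2 overlapped and nothing passed (adjusted p from 0.235 to 0.865 over the 6 tests).

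Cox5a and Cox5b sit next to the catalytic core. Cox5a stood at 799.8, 678, 662 and 721 TPM in the lean samples, 509.9, 503, 457 and 501 in the obese samples and 722, 647, 647 and 666 in the NAM-treated samples. Cox5b stood at 711, 656, 619 and 658 TPM in the lean samples, 525, 448, 461 and 484 in the obese samples and 520.5, 479, 575 and 517 in the NAM-treated samples. Obese samples lay lowest for Cox5a, whose NAM-treated samples reached the lean range, while for Cox5b the NAM-treated samples lay below all lean samples. Cox5a fell by 0.53 ± 0.07 in obese hearts and rose by 0.44 ± 0.07 with NAM as deposited (adjusted p = 0.00169 and 0.00309). Rescaled, neither change of Cox5a was called, and no complex IV member rose by more than 0.12 with NAM. Cox5b fell by 0.46 ± 0.08 in obese hearts (adjusted p = 0.00324), changed by 0.12 ± 0.08 with NAM (adjusted p = 0.232), and against lean was lower in NAM-treated hearts on both scales (adjusted p = 0.042 as deposited and 0.0184 rescaled). The first of these was lost in 9 and the second in 4 of the 12 fits that left out 1 sample, both without lean replicate 1 or 2 and without NAM-treated replicate 1 or 4. Of the 2 rows named Cox6b1, which links the monomers of the complex IV dimer, the larger (ENSRNOG00000034161) stood at 3218, 2701, 2793 and 2437 TPM in the lean samples, 1970.4, 1963, 1893 and 1672 in the obese samples and 2046, 1899, 2144 and 1889 in the NAM-treated samples. Its lean samples lay above all others, and it fell in NAM-treated against lean hearts by 0.48 ± 0.09 as deposited (adjusted p = 0.016) and 0.54 ± 0.08 rescaled (adjusted p = 0.00564). The smaller row (ENSRNOG00000024309) was listed at 267, 219, 188 and 205 TPM in the lean samples, 169, 142, 161 and 164 in the obese samples and 173, 159, 163 and 183 in the NAM-treated samples. The lean samples again lay above all others, and its rescaled change there was -0.43 ± 0.10 (adjusted p = 0.048). The small membrane subunits Cox6c, Cox7b and Cox7c fell as deposited in obese hearts by 0.39 to 0.47 and rose with NAM by 0.31 to 0.34, and none of these passed after rescaling.

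In the ATP synthase both subunits of the catalytic F1 head fell in obese hearts and rose with NAM as deposited, and the inhibitor Atp5if1 was called in no comparison. Atp5f1a (alpha) and Atp5f1b (beta) form the head. Atp5f1a stood at 1026, 852, 879 and 904 TPM in the lean samples, 684, 714, 592 and 623 in the obese samples and 1009.7, 854, 899.6 and 941 in the NAM-treated samples. Atp5f1b stood at 1905, 1721, 1692 and 1773 TPM in the lean samples, 1448, 1558, 1160.0 and 1380.4 in the obese samples and 2073, 1769.9, 1885 and 1913 in the NAM-treated samples. For both, all obese samples lay below all lean and NAM-treated samples. As deposited, Atp5f1a changed by -0.49 ± 0.08 in obese against lean and by 0.50 ± 0.08 in NAM-treated against obese (adjusted p = 0.0038 and 0.00306), and Atp5f1b by -0.36 ± 0.09 and 0.47 ± 0.09 (adjusted p = 0.0153 and 0.00423). After rescaling Atp5f1a had the highest change of its complex with NAM, 0.18 ± 0.07, without passing (adjusted p = 0.208). The rescaled change of Atp5f1b with NAM was 0.14 and was not called, and neither gene was called in obese against lean. Atp5if1, the peptide that blocks the enzyme when it runs backwards, stood at 72.2, 65.7, 66.1 and 72.2 TPM in the lean samples, 72.5, 59.4, 75.6 and 74.2 in the obese samples and 72.7, 74.1, 86.1 and 67.02 in the NAM-treated samples. Its groups overlapped, and it changed by 0.02 ± 0.10 in obese against lean as deposited (adjusted p = 0.886) and 0.28 ± 0.11 rescaled (adjusted p = 0.213).

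The central stalk turns inside the head, and its subunits are Atp5f1c (gamma), Atp5f1d (delta) and Atp5f1e (epsilon). Atp5f1d stood at 91.1, 65.7, 60.3 and 62.1 TPM in the lean samples, 51.4, 44.3, 54.1 and 41.1 in the obese samples and 53.6, 45.01, 47.3 and 40.9 in the NAM-treated samples. Its obese and NAM-treated samples overlapped and all lay below the lean samples. Atp5f1d fell by 0.53 ± 0.14 in obese hearts as deposited (adjusted p = 0.0202, a call lost without obese replicate 4). In NAM-treated against lean hearts it fell by 0.62 ± 0.13 rescaled (adjusted p = 0.032), a call lost in 5 of the 12 fits that left out 1 sample. Its change was -0.27 in obese against lean rescaled and -0.56 in NAM-treated against lean as deposited, and neither was called. Atp5f1c, in the same stalk, rose by 0.45 ± 0.07 with NAM as deposited (adjusted p = 0.00305), and Atp5f1e, at 0.22 ± 0.11, did not pass (adjusted p = 0.137). The peripheral stalk, which holds the head still, has the members Atp5po, Atp5pd and Atp5pf, and all 3 fell in obese hearts (by 0.42 to 0.43) and rose with NAM (by 0.29 to 0.31) as deposited. After rescaling their changes with NAM lay between -0.03 and -0.01. The membrane subunits Atp5me, Atp5mf, Atp5mg and Atp5md fell in obese hearts as deposited, and all but Atp5me rose with NAM. After rescaling none of the 4 was called in either comparison. Atp5me, which helps the enzyme to form dimers, stood at 3151, 2569.8, 2438 and 2447 TPM in the lean samples, 2024, 1796, 1796 and 1936 in the obese samples and 2126, 2150.5, 1795 and 2042 in the NAM-treated samples. All lean samples lay above all others, and its rescaled change in NAM-treated against lean was -0.45 ± 0.10 (adjusted p = 0.0396).

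The c ring is the rotor that protons drive, and its subunit c is encoded by Atp5mc1, Atp5mc2 and Atp5mc3, whose precursors differ in the import sequence and give the same mature peptide. Atp5mc1 stood at 861, 700.4, 653 and 711 TPM in the lean samples, 491, 485, 451 and 466 in the obese samples and 612, 565, 563 and 591 in the NAM-treated samples. Lean samples lay above all others, and NAM-treated samples above all obese ones. Atp5mc1 fell by 0.62 ± 0.08 in obese hearts as deposited (adjusted p = 0.00115) and was the member called lower there after rescaling, at -0.36 ± 0.07 (adjusted p = 0.0379). Atp5mc2 stood at 174, 143, 151 and 159 TPM in the lean samples, 126, 125, 118 and 122 in the obese samples and 135, 109, 113 and 129.9 in the NAM-treated samples. Its obese and NAM-treated samples overlapped as deposited, while after rescaling all NAM-treated samples lay below all obese ones. It changed in NAM-treated against obese by -0.02 ± 0.09 as deposited (adjusted p = 0.888) and -0.34 ± 0.07 rescaled (adjusted p = 0.0399). Atp5mc3 stood at 1149, 939, 944 and 962 TPM in the lean samples, 769, 824, 675 and 784 in the obese samples and 1170.5, 1002, 1004 and 1040.0 in the NAM-treated samples. All obese samples lay below all others. It fell by 0.39 ± 0.09 in obese hearts and rose by 0.47 ± 0.09 with NAM as deposited (adjusted p = 0.0115 and 0.00423). Rescaled, these changes of Atp5mc3 were -0.13 and 0.14, and neither was called. Of the 12 fits that left out 1 sample, the rescaled call of Atp5mc1 held in 3, without obese replicate 1 or NAM-treated replicate 2 or 3, and that of Atp5mc2 in 2, without lean replicate 1 or obese replicate 2.

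As shares of the 3 c ring transcripts, which need no scale, Atp5mc1 took 39.4, 39.3, 37.3 and 38.8% in the lean samples, 35.4, 33.8, 36.2 and 33.98 in the obese samples and 31.9, 33.7, 33.5 and 33.6 in the NAM-treated samples. The lean shares lay above all others. Atp5mc2 took 7.96, 8.02, 8.65 and 8.68% in the lean samples, 9.102, 8.73, 9.52 and 8.87 in the obese samples and 7.04, 6.48, 6.75 and 7.38 in the NAM-treated samples. The NAM-treated shares lay below all others, and the obese shares above all lean ones. Atp5mc3 took 52.6, 52.7, 54.01 and 52.5% in the lean samples, 55.5, 57.5, 54.3 and 57.1 in the obese samples and 61.1, 59.8, 59.7 and 59.1 in the NAM-treated samples. Its share was lowest in lean and highest in NAM-treated samples, with no overlap between any of the groups. These shares were compared after the genes' values had been seen, and no test was made of them.

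**Figure D4:**
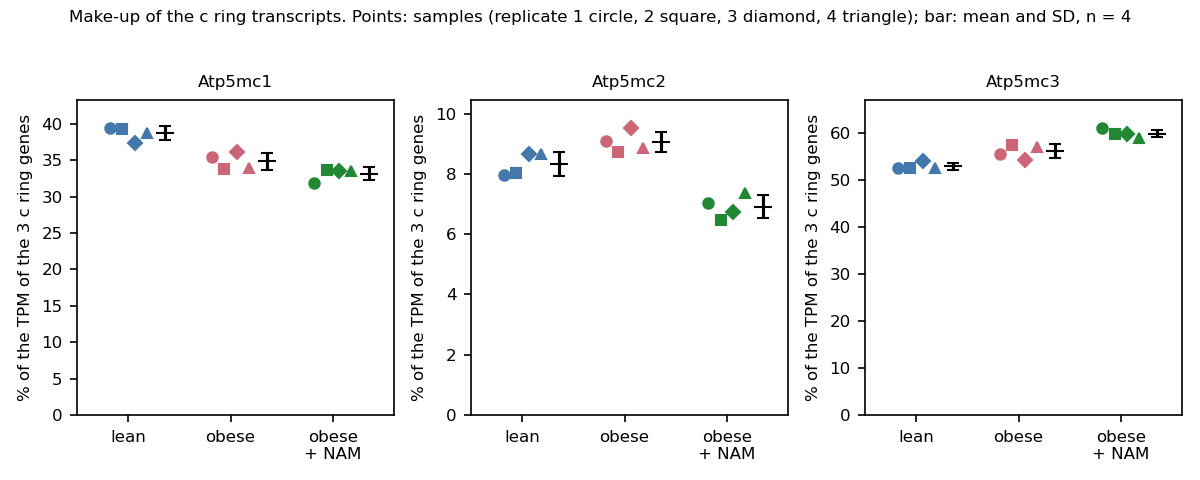
Share of each c ring gene in the summed TPM of Atp5mc1, Atp5mc2 and Atp5mc3 (y axis, %, from 0) by group, with 1 point per sample and bars for mean and SD (n = 4). Atp5mc1 is highest in lean, Atp5mc2 lowest and Atp5mc3 highest in NAM-treated samples, with no overlap with the other groups.

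Pairs of subunits of 1 complex can be compared within a sample, free of scale. The pairs given here were chosen after values had been seen and carry no test. The ratio of Uqcrc2 to Uqcr10 was 0.901, 1.02, 0.96 and 0.989 in the lean samples, 0.97, 1.28, 1.01 and 1.01 in the obese samples and 1.54, 1.46, 1.35 and 1.49 in the NAM-treated samples. The ratio of Atp5f1a to Atp5f1d was 11.3, 12.96, 14.6 and 14.6 in the lean samples, 13.3, 16.1, 10.95 and 15.1 in the obese samples and 18.8, 18.97, 19.04 and 23.03 in the NAM-treated samples. For both, all NAM-treated samples lay above all others, while lean and obese samples overlapped. The ratio of Cox5a to Cox5b was 1.13, 1.03, 1.07 and 1.095 in the lean samples, 0.971, 1.12, 0.991 and 1.04 in the obese samples and 1.39, 1.35, 1.13 and 1.29 in the NAM-treated samples, and here the NAM-treated samples lay above all lean and obese samples by a narrow margin. Across complexes, the summed TPM of complex IV over that of the ATP synthase was 1.08, 1.13, 1.11 and 1.095 in the lean samples, 1.095, 1.04, 1.12 and 1.01 in the obese samples and 0.926, 0.991, 0.997 and 0.985 in the NAM-treated samples. All NAM-treated samples lay below all others. The 24 members called higher with NAM as deposited had a median gene span of 6359 bases in RefSeq and the other 19 members 4716 bases. Over the 43 members the Spearman correlation of span with that change was 0.12, and over the 9474 tested genes with a span it was 0.21; genes of 1 library share its reads, and transcript length and base composition were not used here.

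The mitochondrially encoded partners of these complexes were compared with the nuclear members within each sample. Cytochrome b (Mt-cyb) of complex III, relative to the summed nuclear members, was 7.79, 9.59, 10.4 and 9.59 in the lean samples, 16.7, 16.1, 15.8 and 15.4 in the obese samples and 12.1, 12.7, 12.1 and 12.3 in the NAM-treated samples. All 3 groups were apart, with obese highest. The summed TPM of Mt-co1, Mt-co2 and Mt-co3, the catalytic core of complex IV, was 9.702, 11.3, 12.02 and 11.9 in the lean samples, 17.6, 18.7, 17.6 and 18.3 in the obese samples and 15.7, 17.2, 16.9 and 16.5 in the NAM-treated samples times the nuclear sum. Lean samples lay lowest without overlap, and the NAM-treated samples lay below all obese samples. Mt-atp6 relative to the ATP synthase sum was 4.904, 6.09, 6.27 and 6.29 in the lean samples, 7.33, 8.43, 8.496 and 8.14 in the obese samples and 6.398, 7.63, 7.43 and 7.36 in the NAM-treated samples. Here lean samples lay below all others, and NAM-treated and obese samples overlapped. Of the 6 mitochondrially encoded subunits of these complexes, Mt-cyb, Mt-co1 and Mt-co3 rose in obese against lean as deposited and Mt-atp6 as well after rescaling. With NAM against obese, Mt-co2 and Mt-atp6 rose and Mt-atp8 fell as deposited, and Mt-cyb, Mt-co1, Mt-co3 and Mt-atp8 fell after rescaling. The ratios carry the same values as the shares above, and how reads of the overlapping Mt-atp8 and Mt-atp6 were split is not shown by the table.

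**Figure D5:**
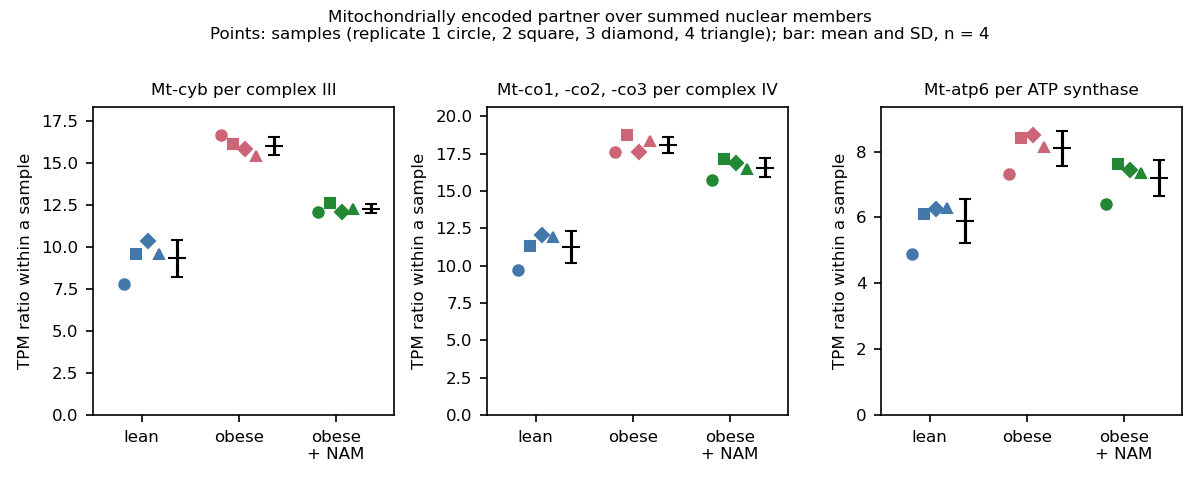
TPM of mitochondrially encoded partners divided by the summed TPM of the nuclear members of the same complex (y axis, from 0) by group, with 1 point per sample and bars for mean and SD (n = 4). For the ATP synthase only Mt-atp6 was used, without Mt-atp8. The lean samples lie lowest in each panel, and the obese samples lie highest for complexes III (15.4 to 16.7) and IV (17.6 to 18.7).

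Other respiratory chain genes were read from fixed lists. Of 36 tested nuclear subunits of complex I, the NADH dehydrogenase, 33 fell in obese against lean as deposited (16.5% of all tested genes did) and 15 rose with NAM (28.8% of all tested genes did), and after rescaling neither count was above 0. In NAM-treated against lean, 6 of them fell as deposited and 14 rescaled, where 0.969% and 1.59% of all tested genes fell. The median rescaled change of complex I there was -0.30, next to -0.19 for the members and 0.00 for all tested genes. All 4 subunits of complex II (Sdha, Sdhb, Sdhc and Sdhd), succinate dehydrogenase, fell in obese hearts and rose with NAM as deposited, and none was called after rescaling or against lean. Of 33 tested assembly factors of the 3 complexes, 14 fell in obese against lean and 13 rose with NAM as deposited, beside the same 16.5% and 28.8% of all tested genes. The next 3 genes were named after their values had been seen. After rescaling Coa5, a complex IV assembly factor, was called in both, at -0.41 in obese against lean (adjusted p = 0.016) and 0.41 in NAM-treated against obese (adjusted p = 0.0259). Cox17, the copper chaperone of complex IV, was lower in NAM-treated against lean on both scales (-0.57, adjusted p = 0.03, as deposited; -0.64, adjusted p = 0.0325, rescaled). Higd1a, which binds complex IV, was lower there too (-0.44, adjusted p = 0.0346; rescaled -0.50, adjusted p = 0.0246).

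Sums and changes of the cell type markers are given on the deposited scale only. The summed TPM of 10 cardiomyocyte genes, among them Tnnt2, Mb and Myl2, ranged from 27495 to 31622 in lean samples, 19571 to 22091 in obese samples and 24082 to 27454 with NAM. The genes of this sum did not all move together. Myh7, the slow myosin heavy chain, stood at 337 ± 44.4, 545 ± 141 and 786 ± 39.3 TPM (mean ± SD, n = 4 each) and rose in obese against lean by 0.66 (limma adjusted p = 0.0147), while Myh6, the fast one, stood at 791 ± 174, 227 ± 31.6 and 464 ± 40.9 TPM and fell by 1.78 (limma adjusted p = 0.000107). In NAM-treated against lean Myh7 rose by 1.23 (limma adjusted p = 0.00266). Hemoglobin and other red cell genes, 4 of 5 in the table, ranged from 721 to 1593, 1661 to 4018 and 485 to 2300 TPM, and the 4 atrial markers from 89.5 to 162, 115 to 582 and 164 to 1098 TPM. The 7 fibroblast markers in the table ranged from 514 to 536, 432 to 772 and 441 to 532 TPM, the 6 macrophage markers from 58.7 to 91.3, 37.0 to 173 and 85.2 to 93.4 TPM, the 4 endothelial ones from 42.1 to 58.2, 34.4 to 50.7 and 45.2 to 59.8 TPM, and the 5 smooth muscle and pericyte ones from 158 to 175, 120 to 146 and 122 to 196 TPM. Skeletal muscle markers, 3 of 5 in the table, summed to at most 3.87 TPM, and of the adipocyte markers Plin1 and Lep were near 0 while Cidea made up most of a sum of 50.2 to 81.8 TPM. The part of these markers in the members' changes was not tested. In bulk tissue, fewer cells of a type and less RNA per cell cannot be told apart. Lean replicate 1, which had the lowest mitochondrially encoded share, 66.2%, was the highest of the 12 samples for 31 of the 43 members, and without it 35 members were called lower in obese against lean as deposited. No 2 samples held identical values.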

How the data were processed

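RNA sequencing of 12 cardiac muscle samples was used as deposited by the authors, in TPM per gene (the unit rests on the deposited table's name and on columns that sum alike). The submitters' processing notes name the Rnor_6.0 assembly and limma, without a version. Libraries were strand-specific, per the labels' protocols; the sources used here do not name the aligner or quantifier. The 498 genes whose deposited NAM-treated cells hold a text mark instead of a TPM value were left out, which left 17104 of 17602. TPM keep no read counts, so depth is unknown, and 14759 to 15120 genes were above 0 per sample.

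The 10526 genes at 1 TPM or more in 4 or more samples were fitted as log2(TPM + 1), which understates changes of low genes, with limma 3.58.1 in R 4.3.3 (3 group means over 12 samples, eBayes with trend and robust, statmod 1.5.0, Benjamini-Hochberg over all tested genes, 2-sided). For rescaling, the divisor of a sample was its median ratio to the geometric mean, over 10114 genes. The fit was tested on simulated data with independent noise per gene, no shift of whole samples and changes larger than those of the members. That run does not bear on the choice of scale or on changes as small as those reported here. Isoform ratios were compared by exact permutation. The members, gene lists and tests were chosen with earlier results of these data known. The members given in full are isoform pairs, the c ring genes, catalytic subunits, each member called after rescaling, and the highest and lowest rescaled change per complex and comparison. A ratio of Cox7a1 to Cox7a2 was planned, but no row is named Cox7a2 and it is not analysed here. Promoter sequences are from RefSeq (GRCr8). Alternatives are given in the closing section.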

Additional observations from a re-analysis of the deposited data

Results flagged for a closer look

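Each group of 4 samples was checked for a highest or lowest sample that stands far from the other 3 (Dixon's criterion at the 95% level). Of 150 groups, 14 had such a sample, where chance alone gives about 1 in 20. In lean samples these were the highest values of Atp5mc3 (1149 TPM, others 939 to 962), Cox4i1 (1003, others 885 to 902), Cox6a2 (832, others 666 to 686) and Cyc1 (338, others 293 to 297), of the sum over all members (35871 TPM, others 30332 to 31244) and of the Atp5mc3 share of the c ring (54.0%, others 52.5% to 52.7%), and the lowest ratio of Mt-atp6 to the ATP synthase sum (4.90, others 6.09 to 6.29). Apart from the Atp5mc3 share, all of these were lean replicate 1. In obese samples they were the lowest values of Cox5a (457 TPM, others 501 to 509.9) and of the complex III sum (2258 TPM, others 2506 to 2539), both in replicate 3, and the highest of Cox7a1 (4.53 TPM, others 2.65 to 2.88) and of the ratio of Uqcrc2 to Uqcr10 (1.28, others 0.9695 to 1.01), both in replicate 2. In NAM-treated samples they were the lowest Cyc1 (263 TPM, others 296 to 300.2) and Atp5mc1 share of the c ring (31.9%, others 33.5% to 33.7%), and the highest ratio of Atp5f1a to Atp5f1d (23.0, others 18.8 to 19.0).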

How the results depend on the processing

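The counts of members called depended mainly on the scale. The 39 members lower in obese against lean as deposited became 1 after median-of-ratios rescaling, 1 under quantile normalization and 1 without mitochondrially encoded genes. The 24 higher in NAM-treated against obese became 0 higher and 1 lower (Atp5mc2), 1 higher and 4 higher. The 7 lower in NAM-treated against lean became 15 after rescaling and 6 under quantile normalization (5 lower and Atp5f1b higher), and were 11 under a filter on a mean of 5 TPM, 11 without mitochondrially encoded genes (10 lower and Uqcrc2 higher) and 17 without Mt-atp8. After rescaling, the single member called in obese against lean became 0 with no filter, without trend and robust or in a fit to the 8 samples of both groups. It became 3 under the filter on a mean of 5 TPM. In NAM-treated against obese the single lower call, Atp5mc2, became 0 under the same first 3 settings. Without mitochondrially encoded genes it was lost too, and 4 other members were called higher (Atp5f1a, Atp5f1c, Cox5a and Uqcrc2). Leaving out 1 sample gave 2 to 7 for the deposited count against lean, and after rescaling 0 to 3, 0 to 2 and 6 to 15 for the 3 comparisons; the cause was not tested. Replicate numbers gave no sign of pairing (same-numbered samples of different groups correlated between -0.05 and 0.07). With the replicate block the counts were 38, 24 and 9 as deposited and 1, 1 and 12 rescaled. The isoform ratios kept their direction except in NAM-treated against obese, where leaving out 1 sample gave -0.158 to 0.0625 for log2 Cox6a2 to Cox6a1 and -0.00183 to 0.144 for log2 Cox8b to Cox8a. In NAM-treated against obese, 38 members were above 0 as deposited and 13 after rescaling. Among the members called there as deposited whose calls were followed across settings, the sign turned for the larger Uqcrb row (-0.0425), Cox4i1 (-0.0558), Atp5mc1 (-0.0235) and Uqcrc1 (-0.0533). Under quantile normalization that of Cox8b turned (0.083 in obese against lean, 0.0496 in NAM-treated against lean). The planned ratio of Cox7a1 to Cox7a2 could not be run. TPM hold no depth, so the counting error of low members such as Cox4i2 and Cox7a1 is unknown.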
